A study of Mus musculus with 670 samples.

Results

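The cells described here are skeletal stem cells sorted from the long bones of male mice aged 2 months, divided by their reads of Prg4. Each cell was sorted into its own well and sequenced by SmartSeq2, a full-length single-cell RNA-seq method without molecular identifiers. Wells entered when they held 1000 or more detected genes, 50000 or more reads in genes and less than 20% mitochondrial reads. Cells were chosen by Prg4 itself: a Prg4-positive cell had at least 100 CPM (reads per 1000000 reads in genes), and a Prg4-negative cell had 0 Prg4 reads. By this rule 35 cells were positive, and 43 cells of plate 3, 55 of plate 4 and 13 of plate 1 were negative. Together these were 61.6% of the cells that passed in the whole series and 21.8% of its 670 wells. Another 8 cells of 2 months lay between the limits and were left out.

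All cells were freshly purified by flow cytometry after mechanical and enzymatic digestion of bone, without culture or treatment. The 2-month cells came from plates 1, 3 and 4, which the labels put in batches 4, 5 and 1. Male mice of postnatal day 3 (1 plate) and 24 months (3 plates) gave the cells used for comparison. The labels name no strain, genotype, animal or antibody, so an age counts as 1 sample. Plates are the only repeat of the split, plates of one age may share an animal, and no p-value was computed. Differences were judged by size alone.

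Prg4 encodes lubricin, the secreted proteoglycan that coats the surface of articular cartilage and the synovial lining and lowers friction between them. In joints it is made by the flat chondrocytes of the superficial zone and by lining cells of the synovium, while deeper chondrocytes build the collagen type II and aggrecan matrix. In the growth plate, chondrocytes pass through proliferating and hypertrophic stages under Runx2, Runx3 and parathyroid hormone-related signals. Cilp (cartilage intermediate layer protein), Creb5 (a CREB family transcription factor) and Angptl7 (a secreted angiopoietin-like protein) were taken here as markers of the joint surface.

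The regulatory sequences shown are the promoters of 4 genes that differed between the classes, read from RefSeq windows of GRCm38.p6 and printed for the 250 bases before each gene start. Creb5 and Cilp were high in positive cells, and Runx3 and Runx2 were high in negative cells. Windows of 250 bases before to 50 bases after each start were searched on both strands for the CREB element TGACGTCA, the AP-1 element TGANTCA and the Runx core TGTGGT. The patterns do not overlap one another. Capitals mark the CREB element in Creb5 and the Runx core, on either strand, in the others.
Creb5, chr6:53287053-53287302, + strand: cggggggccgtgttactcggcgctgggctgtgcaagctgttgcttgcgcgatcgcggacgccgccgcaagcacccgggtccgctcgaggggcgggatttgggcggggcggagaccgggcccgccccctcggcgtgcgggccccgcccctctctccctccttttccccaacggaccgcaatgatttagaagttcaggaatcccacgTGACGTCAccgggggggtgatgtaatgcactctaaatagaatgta
Cilp, chr9:65264930-65265179, + strand: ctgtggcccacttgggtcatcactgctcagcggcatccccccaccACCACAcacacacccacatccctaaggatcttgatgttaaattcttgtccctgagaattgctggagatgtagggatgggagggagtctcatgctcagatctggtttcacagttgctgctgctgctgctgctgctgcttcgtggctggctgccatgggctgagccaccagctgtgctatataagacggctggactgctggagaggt
Runx3, chr4:135120395-135120644, + strand: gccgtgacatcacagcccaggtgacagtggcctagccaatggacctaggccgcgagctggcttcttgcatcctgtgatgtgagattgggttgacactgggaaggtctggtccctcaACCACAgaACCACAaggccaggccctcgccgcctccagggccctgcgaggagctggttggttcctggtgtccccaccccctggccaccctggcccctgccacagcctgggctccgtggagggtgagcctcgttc
Runx2, chr17:44814628-44814877, - strand: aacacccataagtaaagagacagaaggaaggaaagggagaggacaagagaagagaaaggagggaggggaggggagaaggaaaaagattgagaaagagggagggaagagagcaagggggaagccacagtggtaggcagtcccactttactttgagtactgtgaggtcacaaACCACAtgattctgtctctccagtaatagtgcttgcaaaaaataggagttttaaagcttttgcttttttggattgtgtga

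The CREB element of Creb5 began 45 bases before the annotated start. It was present in 2.03% of the 27025 genes with a window, in 5.62% of tested genes, in 5 of 72 genes with a window that were higher in positive cells (6.94%) and in 3 of 68 that were lower (4.41%). Runx cores stood at 2 places in the Runx3 window printed above, 1 in the Cilp window and 3 in the whole Runx2 window, 1 of them before the start. They were present in 18.9% of all genes with a window, 13.02% of tested genes, 12.5% of the higher genes and 19.1% of the lower genes. The AP-1 letters stood in 8.97% of all, 6.24% of tested, 9.72% of higher and 4.41% of lower genes. Each match is a match of letters. A second Creb5 window, at a downstream start, held the AP-1 letters and no CREB element. A second Runx3 window, also at a downstream start, held no Runx core. The windows of Cytl1 (higher) and Matn3 (lower) were read as well and are not printed. Both held 0 matches of the CREB element, the AP-1 letters and the Runx core.

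Prg4 lies at chr1:150449412-150466165 on the minus strand of GRCm38. In the 35 positive cells its level ranged from 102.3 CPM (78 reads) through a median of 11850 to 70499 CPM. At least 1000 CPM was found in 29 of them and at least 10000 CPM in 19. The 4 lowest positive cells had 102.3 to 212.4 CPM, and the highest cells left out had 79.6 and 70.7 CPM, so cells stood close to the limit on both sides. These values made the classes and are given as a description.

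Positive cells were unevenly spread over the plates. On plate 3, 24 of 70 passing cells were positive (34.3%, exact 95% binomial interval 23.3 to 46.6), and on plate 4, 10 of 69 (14.5%, 7.17 to 25.04). On plate 1 only 15 of 96 wells passed and 1 was positive. Over all plates the share was 22.7% (16.4 to 30.2), and 13.1% without plate 3; the intervals cover counting error only. Within plate 3, 16 of 35 passing cells in well columns 1 to 12 were positive against 8 of 35 in columns 13 to 24. On plate 4 these counts were 6 of 33 and 4 of 36. The meaning of well position is not given in the sources used here, and its part in the split was not tested.

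Depth overlapped between the classes. Median gene reads were 892713 in positive and 606323 in negative cells, within a range of 62919 to 3563660. Thinned to 50000 reads, a positive cell of plate 3 showed a median of 1178.5 genes against 1379 in negative cells, and on plate 4 the order was opposite, 1323.5 against 1254. Mitochondrial reads were at a median of 0.795% and 0.985%.

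**Figure D1:**
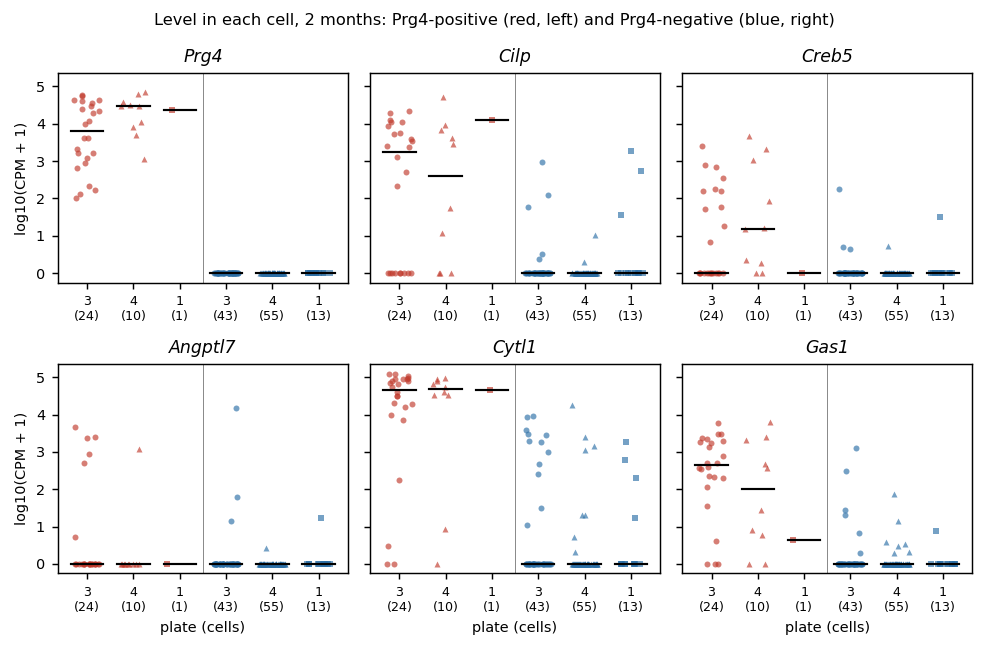
Level of 6 genes in each 2-month cell as log10(CPM + 1), in Prg4-positive cells (red, left) and Prg4-negative cells (blue, right), by plate with the number of cells; black bars are medians. Cytl1 was at least 100 CPM in 30 of 35 positive cells and 15.3% of negative cells, while Angptl7 was at 0 in most cells of both classes.

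Of the 3 other markers of the joint surface, Cilp and Creb5 were called higher in positive cells by the size rule given below, and Angptl7 did not reach its limits. Each was found in a part of the positive cells. Cilp (chr9:65265180-65280605) was at least 100 CPM in 21 of 35 positive cells and 4 negative cells (3.60%). Its positive cells ran from 0 through a median of 2415 to 52836 CPM, and the highest negative cell, on plate 1, had 1881 CPM, so the classes overlapped. Summed over cells, Cilp stood at 4232 CPM in positive and 10.9 CPM in negative cells of plate 3, and at 6082 and 0.298 CPM on plate 4.

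Creb5 (chr6:53287270-53700376) was at least 100 CPM in 10 positive cells and 1 negative cell. Its summed level was 145.5 against 8.07 CPM on plate 3 and 515 against 0.0271 CPM on plate 4. Angptl7 (chr4:148495183-148500460) reached 100 CPM in 6 positive cells and 1 negative cell, and that negative cell, on plate 3, held 15374 CPM. Angptl7 was found in 17.1% of thinned positive cells, too few for the size rule below. That negative cell also held 8656 CPM of Cytl1, 5226 of Cilp2, 2012 of Htra4, 1232 of Gas1 and 543.8 of Myoc. It had 0 reads of Prg4, 2.29 CPM of Cilp and 0 of Creb5. Of Cilp, Creb5 and Angptl7 at 100 CPM, 13 positive cells held none, 9 held 1, 11 held 2 and 2 held all 3. Of the negative cells 94.6% held none and 6 cells held 1.

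The positive cells also carried cartilage genes. Col2a1 or Acan, the main collagen and the main proteoglycan of cartilage, was at least 100 CPM in all 35 positive cells and in 79.3% of negative cells. Sox9, the chondrocyte transcription factor, was at least 100 CPM in 28 of 35 positive cells and 73.9% of negative cells, with summed levels of 666 against 606 CPM on plate 3 and 559 against 815 CPM on plate 4. Bglap, the osteoblast gene for osteocalcin, reached 100 CPM in 0 positive cells, which allows up to 10% of such cells (exact 95% interval), and in 17 negative cells.

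Genes of blood and endothelial cells were at or near 0. The 10 blood cell genes, among them Ptprc and Cd74, summed to 3.66 CPM in positive cells of plate 3 and 0 on plate 4, against 13.1 and 28.2 CPM in negative cells. The 6 endothelial genes summed to at most 5.09 CPM in any class and plate, and 5 of them had 0 reads in positive cells. Of 8 mural and muscle genes, 7 had 0 reads in positive cells. The other was Cspg4, a proteoglycan found in both classes, which made up the whole sum of the list in positive cells, 439 CPM on plate 3 and 548 on plate 4; the list summed to 440.3 and 360.2 CPM in negative cells. The part of other cell types in the results was not tested.

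For the comparison across genes, counts were summed per plate and class. Plates 3 and 4 entered the levels and folds, with 24 positive and 43 negative cells on plate 3 and 10 and 55 on plate 4. Plate 1 had too few positive cells for a fold, but its cells counted in the shares of cells. A gene was tested with at least 20 CPM in the higher class and a read in at least 25% of its cells after thinning to 50000 reads. It was called when it differed at least 2-fold in the same direction on both plates and its thinned shares of cells lay at least 15 percentage points apart. Genes rare in the lower class could thus be tested only through the class where they were high. List counts and medians over tested genes lean toward called genes for that reason. Of 1486 tested genes, 7.34% were called higher in positive cells, Prg4 among them, and 94 genes (6.33%) lower. With the cells of plate 1 left out of the shares, 1518 genes were tested, 7.05% were called higher and 7.18% lower. With the fold asked of 1 plate alone, and plate 1 still in the shares, the rule called 14.6% higher and 10.7% lower on plate 3. On plate 4 it called 21.5% and 12.9%. The median log2 fold of all tested genes was -0.08. Folds are log2 ratios of positive over negative CPM with 1 CPM added to each, and low genes are understated by it.

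**Figure D2:**
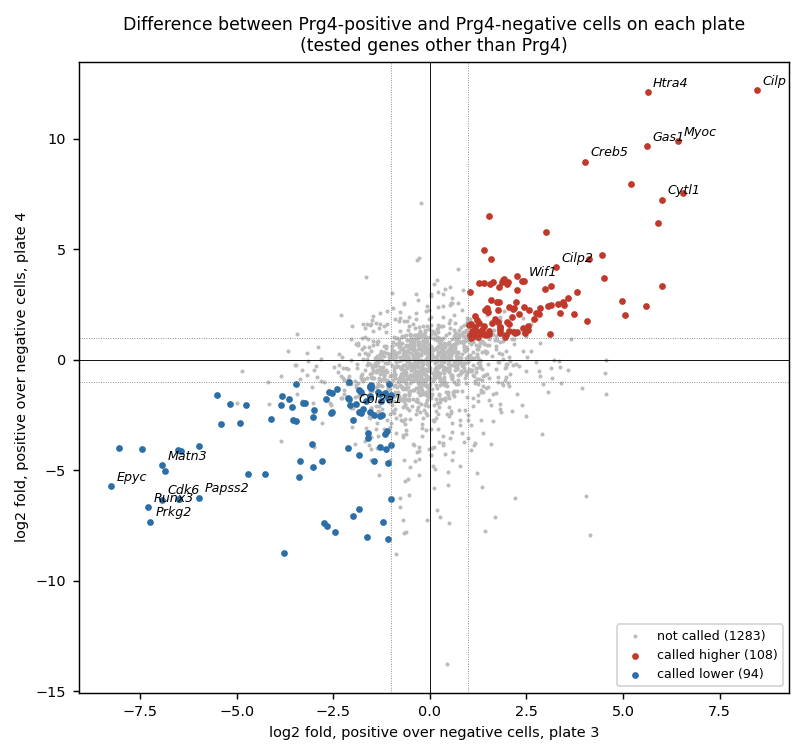
Log2 fold of positive over negative cells on plate 3 (x) and plate 4 (y) for each tested gene other than Prg4; red and blue points are the genes called higher and the 94 called lower, grey points were not called, and dotted lines mark 2-fold. Cilp stands at 8.47 and 12.19, and Epyc at -8.25 and -5.71.

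Most tested genes of the joint surface list were called higher. Besides Prg4 the list holds 15 genes, of which 9 were tested, 8 were called higher and 0 lower, with a median log2 fold of 2.87. Cilp2, a relative of Cilp, stood at 4316 against 448 CPM on plate 3 and 2290.4 against 123.2 CPM on plate 4, and was found in 85.7% of thinned positive cells against 14.4%. Clu, the secreted chaperone clusterin, stood at 9928 against 2286 and 9974 against 2564 CPM. Thbs4, a matrix thrombospondin, was found in 71.4% and 11.7% of cells, with log2 folds of 2.85 and 2.36.

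Vit (vitrin, 1.75 and 2.60), Crispld1 (1.05 and 3.06) and Dcn (the small proteoglycan decorin, 3.05 and 2.44) completed the called members, with the log2 folds of plates 3 and 4 in that order. Abi3bp was tested and missed the rule with log2 folds of 3.66 and 0.94. The other 6 genes of the list, Angptl7 among them, did not reach the limits for testing.

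Cytl1, a secreted cytokine-like protein of cartilage, made up 5.08% of all gene reads of the positive cells, and Prg4 1.75%. Its median over positive cells was 46132 CPM, its lowest 0 and its highest 124690 CPM. Summed levels were 50749.9 and 53452 CPM in positive cells of plates 3 and 4, against 785 and 350.3 CPM in negative cells. The most abundant negative cell had 18049 CPM and the median negative cell 0, so single cells overlapped while the plate sums did not. Across the 35 positive cells, the rank correlation with Prg4 (Spearman) was 0.62 for Cytl1, 0.23 for Creb5, 0.11 for Myoc, 0.096 for Cilp, -0.16 for Gas1, -0.19 for Angptl7 and -0.37 for Htra4. These are descriptions over cells that share plates and differ in depth.

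Genes of hedgehog reception were counted from a list added after the values were seen. Of its 10 genes 5 were tested, 2 were called higher and 0 lower. Gas1 (chr13:60174405-60177365), a membrane co-receptor for hedgehog ligands, stood at 1088 against 21.2 CPM on plate 3 and 1257 against 0.542 CPM on plate 4. It was at least 100 CPM in 24 of 35 positive cells and 2 negative cells (1.80%), and in all 6 positive cells with under 1000 CPM of Prg4. Boc, another co-receptor, had log2 folds of 2.03 and 3.51. Ptch1, the receptor and a target gene, was not called (125.5 against 104.6 CPM on plate 3, 0 against 138.8 on plate 4).

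Some genes of the list of Wnt and BMP modulators were called higher as well. Of 30 genes in the list 6 were tested, 4 were called higher and 0 lower, with a median log2 fold of 2.81. Of all tested genes 7.34% were called higher. Among the 30 genes, 9 had 0 reads in all positive cells and 2 had 0 reads in all negative cells. Wif1, which binds Wnt ligands, stood at 6860 against 1273 CPM on plate 3 and 12397 against 1047 CPM on plate 4. Frzb, a frizzled-related Wnt antagonist of cartilage, had log2 folds of 1.57 and 4.58, and Dkk3 2.39 and 3.57. Grem1, a BMP antagonist, was at least 100 CPM in 9 positive cells and 1 negative cell, with 247.4 against 5.73 CPM on plate 3 and 267.97 against 0.0813 CPM on plate 4. Gdf10, a BMP family ligand outside the list, was also higher (3.47 and 2.48).

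Among the other genes with the largest folds, Htra4 (chr8:25024929-25038962), a secreted serine protease, was at least 100 CPM in 13 positive cells and 1 negative cell. Its summed level was 1425 against 27.7 CPM on plate 3 and 4519 against 0.0271 CPM on plate 4. The plate 4 level rested on few positive cells, with 22533, 5896 and 259.6 CPM, and the other positive cells there held 0. The cell with 22533 CPM was also the deepest positive cell of that plate (1217367 reads). It was the only tested gene of the 10 in the synovial lining list, and the other members did not reach the limits. Myoc (myocilin) was at least 100 CPM in 14 positive cells and 1 negative cell. On plate 4 it had 0 reads in 55 negative cells and 960.1 CPM in positive cells. Against a floor of 3 reads for the class this was at least 11812-fold higher. That level also rested on few positive cells, with 5140, 4857 and 914.5 CPM, and the other positive cells there held 0. On plate 3 Myoc stood at 741 and 7.62 CPM. The negative cell of Htra4 and that of Myoc were the same cell, the one with 15374 CPM of Angptl7.

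Stk32b, a serine/threonine kinase, reached 92.9 and 196.8 CPM in positive cells of plates 3 and 4, and 0 and 0.0542 CPM in negative cells. Dpt (dermatopontin, a fibrous matrix protein) had log2 folds of 5.91 and 6.21, Camk1d (a calmodulin-dependent kinase) 4.46 and 4.75, Sparcl1 (a secreted SPARC relative) 4.12 and 4.58, and Sod3 (extracellular superoxide dismutase) 4.50 and 3.69. Lgr6, a receptor of R-spondins that was singled out after its values were seen, stood at 187.6 against 2.87 CPM and 55.7 against 9.59 CPM.

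Of 24 known regulators of Prg4, 10 were tested, 3 were called higher and 0 lower, with a median log2 fold of 0.32. Creb5 is described above. Errfi1, an intracellular inhibitor of EGF receptor signalling, stood at 4832 against 562 CPM on plate 3 and 807 against 353 CPM on plate 4. Foxo1, a forkhead factor, had log2 folds of 2.53 and 1.38. The TGF-beta receptor genes Tgfbr2 (0.27 and -0.58) and Tgfbr3 (0.68 and 1.05) and the osmotic factor Nfat5 (-1.54 and -2.64) were tested and not called.

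On the lower side, 7 genes of the cartilage matrix list were called. The list holds 25 genes, of which 24 are in the table and 21 were tested; Cytl1 was higher, 7 were lower and the median log2 fold was -1.62. Matn3 (matrilin-3, a matrix adaptor, chr12:8947929-8972028) stood at 45.6 against 5697 CPM on plate 3 and 143.2 against 3893 CPM on plate 4. It was at least 100 CPM in 3 positive cells (8.57%) and 61 negative cells. Epyc (epiphycan, a small proteoglycan of epiphyseal cartilage) was at least 100 CPM in 0 positive and 28 negative cells. On plate 3 it had 0 reads in positive cells against 303 CPM, at least 2206-fold lower against a floor of 3 reads for the class, and on plate 4 it stood at 2.37 against 175.9 CPM.

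The 3 chains of collagen IX, which decorates collagen II fibrils, were called together: Col9a1 (log2 folds of -4.12 and -2.67), Col9a2 (-3.65 and -1.78) and Col9a3 (-3.27 and -1.94). Cnmd (chondromodulin, -3.24 and -1.96) and Ucma (-1.60 and -3.52) were the others. Col2a1 stood at 17917 against 71706 CPM on plate 3 and 13858 against 62838 CPM on plate 4, 2-fold or more lower on both. It was not called, because it was found in 94.3% of thinned positive cells, above the 79.3% of negative cells. Acan (-1.28 and -0.47), Comp (0.28 and -0.23) and Chad (0.58 and 0.69) were not called.

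**Figure D3:**
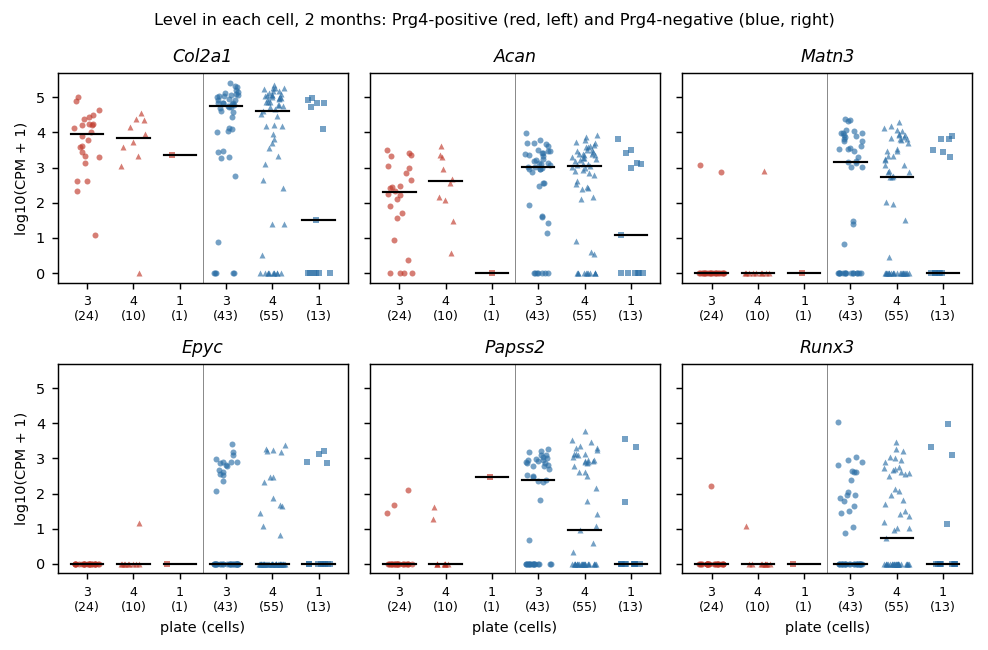
Level of 6 cartilage genes in each 2-month cell as log10(CPM + 1), drawn as in the plot of Prg4 and its markers. Col2a1 and Acan were present in most cells of both classes, while Matn3, Epyc, Papss2 and Runx3 were at 0 in most positive cells.

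Transcription factors of chondrocyte maturation were low in positive cells. Runx3 (chr4:135120652-135177990) was at least 100 CPM in 1 positive and 30 negative cells, with 0.503 against 234.3 CPM on plate 3 and 1.92 against 295 CPM on plate 4. Runx2, a master factor of hypertrophy and bone formation, was at least 100 CPM in 1 positive and 27 negative cells, with 7.73 against 226.2 and 5.33 against 226.8 CPM. Lef1, a nuclear partner of beta-catenin, had 0 reads in positive cells of plate 3 against 175.1 CPM, and 12.7 against 221.5 CPM on plate 4. Runx1 was not called (1.76 and -0.99). These factors were counted in a list of 8 genes added after the values were seen, with 5 tested, 3 called lower and a median log2 fold of -4.76.

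The growth plate list held 20 genes, of which 8 were tested, 3 were called lower (Runx2, Runx3 and Pth1r) and 0 higher. Its median log2 fold was -1.17, with -0.58 on plate 3 and -3.20 on plate 4. Summed over the list, the plates went opposite ways. Positive cells stood at 14404 against 7073 CPM on plate 3 and 6019 against 13828 CPM on plate 4. Pth1r, the receptor of parathyroid hormone-related protein, stood at 264.6 against 646 CPM on plate 3 and 61.3 against 964 CPM on plate 4. Col10a1, the hypertrophic collagen, was at least 100 CPM in 2 positive cells and 1 negative cell. In the osteoblast list 5 of 18 genes were tested and Runx2 was the 1 called; its median log2 fold of -1.46 came from plate 4 (-2.05) and not from plate 3 (0.35).

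Further genes with the largest lower folds were Papss2, which makes the sulfate donor for proteoglycans (8.42 against 588 CPM on plate 3, 7.99 against 672 CPM on plate 4), and Gpc1, a heparan sulfate proteoglycan of the cell surface (-6.86 and -5.01). Cdk6, a G1 cyclin-dependent kinase, was at least 100 CPM in 0 positive and 28 negative cells. Prkg2, the cGMP-dependent kinase of growth plate chondrocytes, was so in 0 positive and 24 negative cells. Cthrc1, a secreted collagen triple helix repeat protein, was so in 0 positive and 25 negative cells. Cald1 (-6.53 and -4.09), Marcks (0 against 86.3 CPM on plate 3 and 6.22 against 123.7 on plate 4) and Crispld2 (-4.26 and -5.14) completed the 12 named.

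The size of these lower folds depended on the limit for a positive cell. With the limit at 20 CPM of Prg4, 3 cells of plate 3 and 2 of plate 4 joined the positive class, and 75 of the higher and 65 of the 94 lower genes were called again. Of the 22 lower genes named or listed, 12 moved by more than 1.5 times. Papss2 went from a log2 fold of -6.10 to -2.77, Cdk6 from -6.55 to -4.21, Cald1 from -5.15 to -2.52, Lef1 from -4.76 to -2.19 and Runx2 from -4.92 to -3.37, and these 5 kept their call. Gpc1 (-5.53 to -4.19) and Matn3 (-5.65 to -4.99) also moved by more than 1.5 times and kept their call. Cthrc1 (-6.42 to -1.78), Crispld2 (-4.67 to -1.07), Marcks (-4.69 to -1.11), Lum (-2.74 to -0.12) and Col12a1 (-1.90 to -0.69) lost the call. Fbln7 (-1.75 to -1.24) lost it too, with a move of 1.42 times. Runx3, Epyc and Prkg2 stood at -7.01, -6.90 and -7.35 under that limit. Of the 32 higher genes 22 were called again and none moved by more than 1.5 times; Stk32b, Grem1, Crispld1, Dkk3, Ecm2, Errfi1, Foxo1, Nr1d1, Pcna and Per3 lost the call.

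Fibrous and stromal genes went both ways. In the fibrous list 8 of 22 genes were tested; Dpt was higher, Col12a1 (-3.47 and -1.08) and Lum (-3.03 and -2.60) were lower, and the median log2 fold was 0.21. Of 22 small proteoglycans and their partners 12 were tested, with Dcn, Ecm2 and Sod3 higher, Lum and Fbln7 lower, and a median of 0.56. Of 19 proteases and inhibitors 7 were tested and Serpine2, an inhibitor of serine proteases, was higher (1.63 and 3.53). Of 11 marrow stroma genes 2 were tested and Grem1 was the 1 called. The medians near 0 were not stable in sign: of 20 other settings, 1 turned that of the fibrous list, 2 that of the small proteoglycans and 2 that of the Prg4 regulators.

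Of 8 surface proteins used to sort skeletal cells, 1 was tested. Cd200 was higher, with log2 folds of 1.41 and 1.53, and was at least 100 CPM in 34.3% of positive and 17.1% of negative cells. Of 20 cell cycle genes only Pcna, a replication clamp also used in DNA repair, was tested; it was called higher (1.25 and 1.05), while 11 of the 20 had 0 reads in all positive cells. None of the 18 tested immediate early and heat shock genes, out of 22, was called, and their median log2 fold was 0.05.

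**Figure D4:**
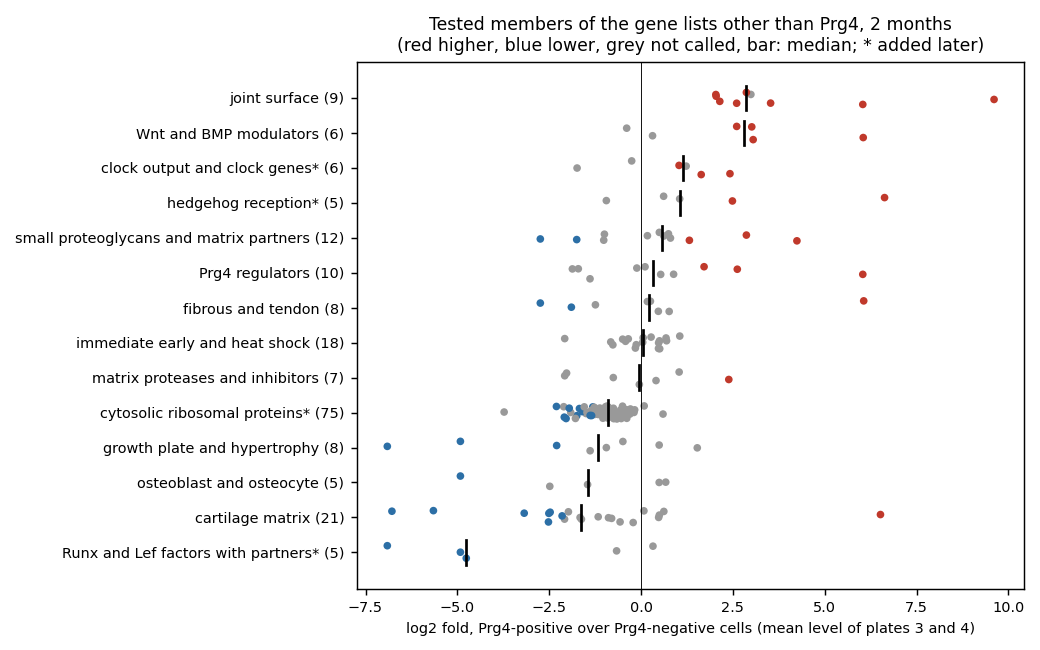
Log2 fold of positive over negative cells, from the mean level of plates 3 and 4, for the tested members of the 14 lists with at least 5 of them, Prg4 left out and 4 lists added after the values were seen marked with a star; red and blue points were called higher and lower, grey points were not called, and bars are medians. The joint surface list lies highest with a median of 2.87; the added list of Runx and Lef factors lies lowest with -4.76, and the cartilage matrix list next with -1.62.

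Lists added after the values were seen gave 2 further groups. Of 92 cytosolic ribosomal protein genes 75 were tested, 10 were called lower and 0 higher, and the median log2 fold was -0.90 (-0.96 on plate 3 and -0.94 on plate 4), against -0.08 over all tested genes. Summed, these genes made up 8968 and 9549.5 CPM in positive cells of plates 3 and 4 against 16804 and 16227 CPM in negative cells. Reads of ribosomal genes can fall on near-identical pseudogenes, and single members are uncertain for that reason.

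Of 16 clock genes 6 were tested and 3 were called higher. Dbp, a clock output factor, stood at 558 against 102.96 CPM on plate 3 and 528 against 98.4 CPM on plate 4. Per3 (1.60 and 1.67) and Nr1d1 (1.07 and 1.00) were nearer the limit, and the median of the list was 1.33 on plate 3 and 0.09 on plate 4.

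The split was repeated among cells with Col2a1 or Acan at 100 CPM or more, to compare cartilage-type cells with each other. On plates 3 and 4 these were 34 positive and 82 negative cells. Of 1635 tested genes, 6.48% were called higher and 9.3% lower. Of the higher genes 93 were called again, and of the 94 lower genes 89. Another 63 genes were called lower only here, among them Hapln1, the link protein of aggrecan, Col11a2, Matn4 and Fgfr3; these 4 were singled out after their values were seen. Nr1d1, Pcna and Crispld1 were among the 16 higher genes not called here. Matn3 had a log2 fold of -5.78, Runx3 -7.06, Cytl1 6.55 and Gas1 9.92. Before this filter the log2 fold of Gas1 was 6.63. The 2 negative cells with at least 100 CPM of Gas1 (1232 and 309.9 CPM) were under 100 CPM of both Col2a1 and Acan. Neither of them entered here, and the larger Gas1 fold reflects their removal.

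The same split was made at postnatal day 3, where 19 of 68 passing cells were positive (27.9%, 17.7 to 40.1) and 44 negative, all on 1 plate of batch 3. Prg4 summed to 1755 CPM in those positive cells. By the same rule on 1 plate, 295 of 2750 tested genes were higher (10.7%) and 312 lower (11.3%). Of the genes higher at 2 months besides Prg4, 27 were also higher at postnatal day 3, which is 25% of the 2-month list and 9.18% of the 294 genes of postnatal day 3. Of the 94 lower genes 12 were lower at both ages, 12.8% and 3.85% of each list. Not all could be called there: 67 of the higher and 69 of the lower genes were tested at postnatal day 3, of which 40.3% and 17.4% were called the same way, beside 10.7% and 11.3% of all genes tested.

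Those higher at both ages included Cytl1 (2627 against 237.1 CPM at postnatal day 3), Creb5 (127.2 against 17.6), Gas1 (1314 against 309), Wif1 (5077 against 722), Cilp2, Vit, Boc and Gdf10. Those lower at both ages included Matn3 (656 against 2233 CPM), Papss2, Pth1r, Gpc1, Cdk6 and Lum. Cilp stood at 274.8 against 155.5 CPM and was not called at postnatal day 3, and Angptl7 and Myoc had 0 reads in both classes there.

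Read by fold alone, 100 of the higher genes had at least 20 CPM at postnatal day 3. Of these, 76 pointed the same way, 42 were at least 2-fold higher and 13 at least 2-fold lower, where 12.7% and 14.2% of all tested genes at that level were. Of the 94 lower genes 87 had 20 CPM, of which 61 pointed the same way, 26 were at least 2-fold lower and 1 was at least 2-fold higher. Whether the ages differ was not tested.

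**Figure D5:**
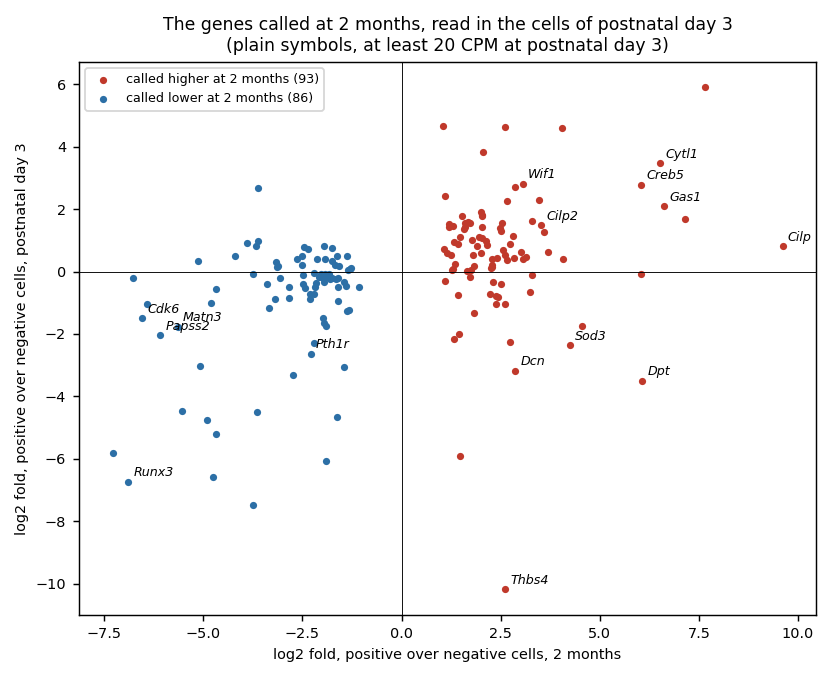
Log2 fold of positive over negative cells at 2 months (x) and at postnatal day 3 (y) for the genes called at 2 months with ordinary symbols and at least 20 CPM at postnatal day 3 (93 higher in red, 86 lower in blue). Cytl1, Creb5, Gas1 and Wif1 lie above 0 at both ages, and Dpt, Dcn, Sod3 and Thbs4 lie below 0 at postnatal day 3.

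At 24 months 7 of 15 passing cells were positive (46.7%, 21.3 to 73.4) and 8 were negative, too few for the rule on any plate. Cytl1 and Cilp2 were each at least 100 CPM in 4 of the 7 positive cells and 0 of the 8 negative cells, Cilp in 3 and 0, Creb5 and Angptl7 in 2 and 0, and Gas1 in 1 and 0. Runx3 and Matn3 reached that level in 0 cells of either class.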

How the data were processed

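The deposited table holds RSEM expected counts, with gene symbols in rows and 1 cell in each column. Per the submitters' processing notes, bcl2fastq 2.18, STAR 2.4, RSEM 1.2.21 and build GRCm38.p6 were used; other settings are not given in the sources used here. Expected counts were rounded to whole numbers, since 14.8% of values above 0 were not whole. The 92 spike-in rows were kept out of totals. For testing, 610 rows that repeat another row of the same symbol and 28 rows named by a number were left out. 1 column matched no sample and was not used. No doublet caller was run; each well was sorted as 1 cell.

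Counts were summed per plate and class, divided by the class total to CPM and averaged over plates with at least 3 cells in each class. Each cell was thinned to 50000 reads (seed 1) for shares of cells with a read, taken at 2 months over plates 1, 3 and 4. Reads carry no molecular identifiers, so intervals and floors of 3 reads cover counting error only. The rule sets no error rate, so its calls are descriptions of these cells. Named were the 4 markers, the 12 called genes with the largest fold each way (by the smaller of their plate folds, leaving out predicted genes and pseudogenes), called members of the lists, and members of lists without a call. The cell classes and gene lists were chosen with earlier results of these data known. Of 237 passing cells of the series, 146 were in the classes at 2 months (35 positive, 111 negative), and 109 genes were called higher and 94 lower. RefSeq windows matched 72 of 109 higher and 68 of 94 lower genes by symbol, and gene positions are from GENCODE annotation of GRCm38. Alternatives were other Prg4 limits, thinned cells, cell means, pooled plates, 10 CPM added, other filters, edgeR 4.0.16 TMM factors (R 4.3.3), and leaving out each plate; 3 were added after seeing the data (1000 to 2000 genes, 300000 to 2000000 reads, and Prg4 and Cytl1 out of the total). Python 3.11.15 with pandas 2.3.3, numpy 2.4.6 and scipy 1.17.1 was used.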

Additional observations from a re-analysis of the deposited data

Results flagged for a closer look

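Of the named genes called higher in Prg4-positive cells at 2 months, 8 pointed the other way by at least 2-fold at postnatal day 3. Both plates of 2 months lay on one side and the single plate of postnatal day 3 on the other. The difference between the ages was not tested, and the labels give the ages different plates and batches, which cannot be told apart from age. Dpt had log2 folds of 5.91 and 6.21 on plates 3 and 4 at 2 months and -3.49 at postnatal day 3, Dcn 3.05, 2.44 and -3.18, and Sod3 4.50, 3.69 and -2.36. Camk1d had -1.76, Dkk3 -1.03 and Serpine2 -1.05 at postnatal day 3. Thbs4 had 0 reads in the positive cells of postnatal day 3 against 1155 CPM in negative cells, at least 7569.7-fold lower against a floor of 3 reads for the class (a log2 bound of -12.89). Cd200 likewise had 0 reads against 58.5 CPM, at least 383-fold lower (-8.58).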

How the results depend on the processing

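No paired analysis was possible because no test was run; the rule itself compares the classes within each plate. Counts of calls are given as percentages of the genes tested under each setting, against 7.34% higher and 6.33% lower. Summing cells over plates gave 11.9% higher. Leaving out the minimum share of cells gave 1.76% higher and 2.02% lower, because 7492 genes were then tested; every gene called before was called again. Cells with Col2a1 or Acan gave 9.3% lower, and cells with 300000 to 2000000 reads 9.6% lower. With cells of at least 500 genes, plate 1 also entered, 4.09% were higher and 5.004% lower, and the log2 fold of Fbln7 became 1.58. With at least 2000 genes and 200000 reads, 3 positive and 14 negative cells of 1 plate remained, with 24.5% higher, 25.9% lower and a positive share of 11.6%. Under that filter the log2 folds of Cd200 (-5.65), Crispld1 (-2.37), Ecm2 (-0.92), Nr1d1 (-1.74), Per3 (-0.69) and Vit (-0.32) changed sign, Sparcl1 had 0 and the median of the Wnt and BMP list was -1.51. Leaving out a plate gave 7.05% to 21.5% higher, 7.18% to 12.9% lower and positive shares of 13.1% to 29.4%; asking 1 plate instead of both removes the need for the plates to point the same way. Of 55 genes recomputed under 20 settings, 47 kept their sign under each. Of the genes called, 49 to all of the higher and 43 to all 94 of the lower genes were called again under a setting. Of 19 list medians, 7 kept their sign: joint surface, synovial lining, cartilage matrix, growth plate, Runx and Lef, clock and ribosomal. The synovial lining median is that of Htra4 alone. The Runx and Lef, clock and ribosomal lists were added after the values were seen, so their stable signs are no separate support. Those of the immediate early and protease lists changed sign under 7 settings each, those of the Prg4 regulators and small proteoglycans under 2 each, and those of the Wnt and BMP, hedgehog, fibrous, osteoblast, marrow stroma, surface protein, mural and cell cycle lists under 1 each. Leaving the reads of Prg4 and Cytl1 out of the total moved the median fold by 0.11. With 10 positive cells on plate 4, a gene in few cells rests on 1 or 2 of them there.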
